A study of Anableps anableps with 4 samples.

Results

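In the four-eyed fish, Anableps anableps, the small leucine-rich proteoglycans were followed across 4 spatial sections of the developing head and the eye. Members were all genes whose symbol in the files equalled DCN, LUM, KERA, FMOD, OGN, BGN or PRELP, ignoring case and a fish suffix a or b. The rule found 9 of the 22934 genes and all 7 symbols. They were DCN (ENSABLG00000011496), LUM (ENSABLG00000011492), KERA (ENSABLG00000011487), fmoda (ENSABLG00000022858), fmodb (ENSABLG00000000871), ogna (ENSABLG00000009229), ognb (ENSABLG00000003794), bgnb (ENSABLG00000008046) and PRELP (ENSABLG00000022860). The rule used names alone and no measured value, but the 7 symbols were chosen with earlier results of these data known.

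Small leucine-rich proteoglycans are secreted matrix proteins whose curved leucine-rich core binds collagen fibrils and sets their thickness and spacing. Decorin (DCN) and biglycan (BGN) carry chondroitin or dermatan sulfate chains and, in mammals, also bind TGF-beta. Lumican (LUM), keratocan (KERA) and fibromodulin (FMOD) can carry keratan sulfate, and PRELP is a close relative that links collagen to basement membranes in mammals. Osteoglycin (OGN), also called mimecan, belongs to a further branch of the family. In the vertebrate cornea the even fibril spacing set by lumican, keratocan and decorin goes with transparency, and keratocan is a marker of corneal keratocytes in mouse and human. Elsewhere the same genes mark tendon, cartilage, sclera, dermis and the sheaths of muscle.

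The study set the eye of this fish, whose pupils look into air and water at once, at developmental stages 3, 4 and 5 against the adult eye. It used Visium, in which the poly(A) RNA of a fresh frozen 10 µm section is captured on an array of barcoded spots and counted once per molecular identifier (UMI). There were 3 groups. 1 capture area, called the mixed section, carried a stage 5 eye beside a stage 3 head, 1 carried a stage 4 head, and 2 carried adult eyes. No genotype, treatment, sex or age in days was given, all sections carried batch number 1, and whether the adult eyes came from the same fish is not stated. The first 2 capture areas are called the developing sections below. They hold head tissue beside the eye, which the adult sections lack, so stage and tissue content cannot be told apart.

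A spot covers a small piece of tissue and can hold several cells of different types, so a higher level can mean more cells of a type or more RNA per cell, and these cannot be told apart. Spots with at least 100 UMIs were used, 779 to 1488 per section, with 1513171 to 5161091 UMIs in all and a median of 1099.5 to 2276 per spot. Crystallins, the lens proteins, took 4.37% and 4.02% of the UMIs in the developing sections and 33.2% and 33.5% in the adult eyes. Of 2869 distinct spot barcodes, 1624 occurred in more than 1 section, as the arrays use a common set. Levels are CPM, the usual scaling of UMIs by the total of the section or spot class. Because each captured transcript end counts once, they were not divided by gene length. Intervals in brackets are exact 95% Poisson (CPM) or Clopper-Pearson (share) intervals and cover counting error only.

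DCN was the most abundant member in every section by a wide margin. It had 1275 CPM (1219 to 1333) in the mixed section, 1657 CPM (1618 to 1696) in the stage 4 head, 841 CPM (814 to 869) in adult eye 1 and 1017 CPM (990 to 1045) in adult eye 2. The 4 intervals did not overlap on this scale, and the adult eyes, the only repeat, differed by more than counting error. With crystallin UMIs left out of the totals DCN had 1333 CPM (1274 to 1394) in the mixed section, 1726 (1686 to 1767) in the stage 4 head, 1258 (1217 to 1299) in adult eye 1 and 1529 (1488 to 1571) in adult eye 2. Adult eye 2 then lay above the mixed section, and adult eye 1 overlapped it. DCN supplied 66.0% and 66.7% of all member UMIs in the developing sections and 70.9% in each adult eye. Its UMIs reached 41.8% of the spots of the mixed section, 70.1% of those of the stage 4 head, and 36.5% and 34.4% in the adult eyes. The highest count in a single spot was 258 UMIs, in the stage 4 head.

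The second sulfate carrier of the decorin type, bgnb, showed no clear order of sections on the scale of all UMIs. It had 66.1 CPM (53.8 to 80.4) in the mixed section, 54.3 (47.6 to 61.8) in the stage 4 head, 61.6 (54.4 to 69.5) in adult eye 1 and 50.4 (44.4 to 56.9) in adult eye 2. These intervals overlapped with each other. Without crystallin UMIs they were 56.6 (49.6 to 64.4) in the stage 4 head and 92.1 (81.4 to 104) in adult eye 1, clear of each other, so whether bgnb differs between sections depends on the scaling.

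Among the genes of the keratan sulfate branch, LUM was highest in the developing sections. It had 133 CPM (116 to 153) in the mixed section and 261 CPM (246 to 277) in the stage 4 head, against 57.2 CPM (50.3 to 64.8) in adult eye 1 and 64.1 CPM (57.4 to 71.4) in adult eye 2. The adult intervals overlapped and lay below both developing sections. PRELP had 58.2 CPM (46.6 to 71.6) in the mixed section, 121 CPM (111 to 132) in the stage 4 head, 39.1 CPM (33.5 to 45.5) in adult eye 1 and 44.0 CPM (38.4 to 50.1) in adult eye 2. Only the stage 4 head stood clear of the other sections in PRELP. Without crystallin UMIs the adult LUM intervals still lay below both developing sections, and the stage 4 head still stood clear in PRELP.

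KERA and fmoda ran in another order. KERA had 80.6 CPM (67.0 to 96.3) in the mixed section, 40.3 CPM (34.5 to 46.8) in the stage 4 head, 74.6 CPM (66.6 to 83.2) in adult eye 1 and 88.7 CPM (80.8 to 97.3) in adult eye 2. The stage 4 head was lowest, and the other intervals overlapped. Without crystallin UMIs KERA had 84.3 CPM (70.0 to 101) in the mixed section, 42.0 (35.9 to 48.7) in the stage 4 head, 112 (99.7 to 124) in adult eye 1 and 133 (121 to 146) in adult eye 2, so that the stage 4 head stayed lowest and adult eye 2 no longer overlapped the mixed section. KERA gave 4.17% of member UMIs in the mixed section and 1.62% for the stage 4 head, against 6.28% and 6.18% in the adult eyes. For fmoda the levels were 109 CPM (93.0 to 127) in the mixed section, 50.1 CPM (43.6 to 57.3) in the stage 4 head, 42.1 CPM (36.2 to 48.7) in adult eye 1 and 65.7 CPM (58.9 to 73.1) in adult eye 2. The section with the stage 5 eye was highest in fmoda, and the stage 4 head did not differ from adult eye 1 beyond counting error. Without crystallin UMIs the mixed section, at 114 CPM (97.3 to 133), overlapped adult eye 2, at 98.7 CPM (88.5 to 110).

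The osteoglycin gene ogna was the second most abundant member in 3 sections. It had 209 CPM (187 to 234) in the mixed section, 297 CPM (281 to 314) in the stage 4 head, 69.9 CPM (62.3 to 78.3) in adult eye 1 and 105 CPM (96.0 to 114) in adult eye 2. KERA took second place in adult eye 1, where its interval overlapped that of ogna. The second copies were close to silent. In the used spots, ognb had 7 UMIs in the stage 4 head, 4 in adult eye 1 and 0 elsewhere, and fmodb had 1 UMI, in adult eye 1. A count of 0 allows up to 1.98 CPM in the mixed section and up to 0.581 CPM in adult eye 2. Reads shared between such copies could not be examined, so a low count of a second copy is uncertain, and fmodb and ognb enter no later result.

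**Figure D1:**
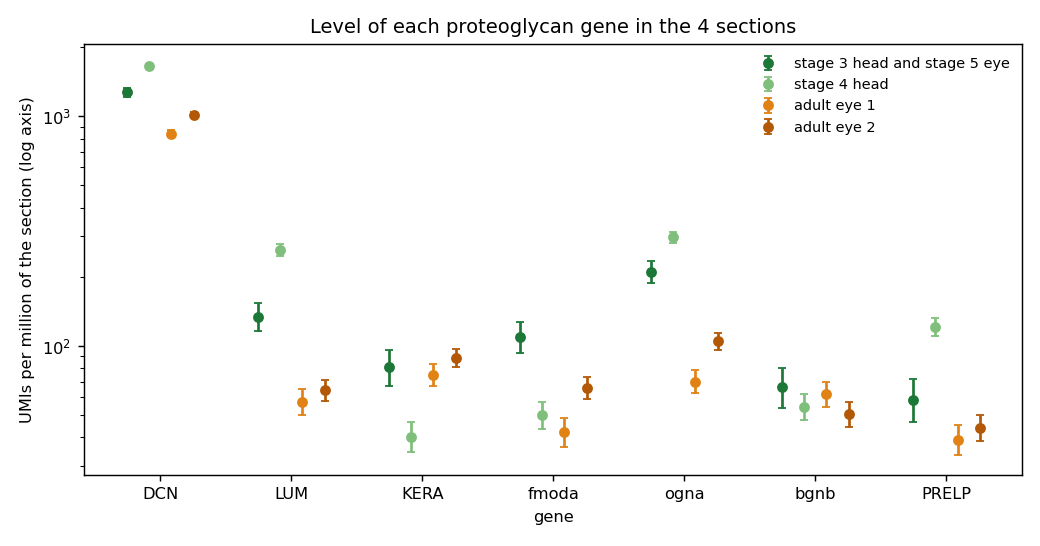
Level of each of the 7 abundant members in the 4 sections, in CPM on a log axis, with exact 95% Poisson intervals as bars (1 point per section). LUM, ogna and PRELP peak in the stage 4 head, where KERA is lowest at 40.3 CPM, and DCN is the highest member in all 4.

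The developing sections differ in stage and tissue and are not replicates, so the level difference between developing and adult sections was not tested. A gene was called only when every developing section differed at least 2-fold from every adult section in the same direction. By this rule 5.85% of 7191 genes with at least 50 UMIs were higher in the developing sections and 3.24% were higher in the adult. Of the 7 members with enough UMIs, ogna (smallest of the 4 ratios 2.00) and LUM (2.08) were higher in the developing sections and none was higher in the adult. Both sat just past the threshold, and PRELP (1.32) and DCN (1.25) followed below it. Neither call held under every scaling. With crystallin UMIs left out of the totals the smallest ratio fell to 1.39 for ogna and 1.45 for LUM, and relative to the median gene, whose log2 ratio was 0.27, it was 1.66 and 1.73, so that no member passed. With a minimum of 500 UMIs per spot ogna was at 1.99 and LUM alone passed.

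Each section was clustered without the members, so that where they lie could be read against tissue named from other genes. The DCN-richest tissue in every section was marked by mamdc2a. Clusters were called mamdc2a-rich when their mamdc2a level was at least 50% of the highest cluster level in the section. This rule was set after cluster values had been seen, so what follows from it is a description with no test. It took clusters 5 and 8 of the mixed section (92 spots), cluster 1 of the stage 4 head (76), cluster 2 of adult eye 1 (98) and clusters 0 and 8 of adult eye 2 (156). The cluster nearest the threshold inside was cluster 8 of the mixed section, with 755 mamdc2a CPM against 1421 in cluster 5 of that section. The nearest outside was cluster 4 of adult eye 1, with 649 against 2188.

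The members' stroma label was checked in these clusters on 21 connective tissue markers that are not members. Their summed level was 9440 CPM in the mamdc2a-rich clusters, against 1551 in the rest of the mixed section, 11542 against 2448 in the stage 4 head, 8786 against 780 in adult eye 1, and 8330 against 683 in adult eye 2. SPARC, a collagen-binding matrix protein, and COL6A2, a chain of collagen VI, made up most of it, with 4254 and 4190 CPM in the mamdc2a-rich clusters of the mixed section. At least 2-fold higher inside were 9 of the 21 markers in the mixed section, 7 in the stage 4 head, and 11 and 9 in the adult eyes. Between 7 and 9 of the 21 markers were at 0 inside, among them LOX and the copies of several genes that carry a shared symbol. The lysyl oxidase gene loxa, which cross-links collagen, had 118 and 270 CPM inside in the developing sections and 517 and 459 CPM in the adult eyes. Only cluster 2 of adult eye 1 met the naming rule for connective tissue, cluster 8 of adult eye 2 met that for cartilage and bone, and the other 4 stayed unnamed. Surface epithelium markers were also higher inside in 3 sections, at 10350 against 2558 CPM in the mixed section, 5005 against 2003 in the stage 4 head and 11909 against 3590 in adult eye 2, but not in adult eye 1, at 5000 against 5329. Mural and endothelial markers were higher inside in all 4 sections, at 872 against 562 CPM in the mixed section, 1615 against 271 in the stage 4 head, 974.7 against 371 in adult eye 1 and 2399 against 192 in adult eye 2. Macrophage markers were higher inside in the mixed section (246 against 157 CPM) and the adult eyes (444 against 204 and 711 against 133 CPM). In the stage 4 head they were nearly level, at 88.1 against 85.6 CPM. In the adult eyes pigment epithelium markers (358 against 105 and 340 against 117 CPM) were higher inside too. So were cartilage and bone markers there (577 against 264 and 425 against 183 CPM), which were lower inside in the developing sections. Inner retina markers (1275 against 705 CPM) and pigment epithelium markers (582 against 322) were higher inside in the stage 4 head. Both were lower inside in the mixed section (401 against 1670 and 177 against 858 CPM). Inner retina markers had 869 against 751 CPM in adult eye 1 and 701 against 693 in adult eye 2. The part of these tissues in the members' levels was not tested.

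These clusters held 12.3% of all UMIs of the mixed section, 3.99% in the stage 4 head, 3.49% in adult eye 1 and 6.16% in adult eye 2. They held far more of the members' UMIs: 55.4% (53.6 to 57.2) in the mixed section, 25.2% (24.3 to 26.0) in the stage 4 head, 57.1% (55.7 to 58.4) in adult eye 1 and 68.9% (67.9 to 70.0) in adult eye 2. DCN reached 5897 CPM inside against 624 outside in the mixed section. The same pair was 11454 against 1250 CPM in the stage 4 head, 14369 against 351 in adult eye 1, and 11485 against 330 in adult eye 2. In adult eye 1 all 98 of these spots had a DCN UMI, and in adult eye 2 148 of 156 did.

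fmoda and KERA were the members most confined to these clusters. They held 79.4% (72.4 to 85.3) of fmoda UMIs in the mixed section, 89.7% (84.8 to 93.4) in the stage 4 head, 64.3% (56.9 to 71.2) in adult eye 1 and 85.8% (81.7 to 89.4) in adult eye 2. For KERA the shares were 77.9% (69.5 to 84.9), 59.9% (52.1 to 67.3), 72.0% (66.8 to 76.9) and 80.1% (76.2 to 83.7) in the same order of sections. LUM and PRELP were spread more widely, and least confined in the stage 4 head, where only 9.33% of LUM UMIs and 5.23% of PRELP UMIs lay inside, against 61.3% and 48.9% in adult eye 2. For ogna the shares were 54.3% and 18.7% in the developing sections and 59.9% and 73.9% in the adult eyes. bgnb stayed between 21.4% (adult eye 1) and 33.0% (mixed section).

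**Figure D2:**
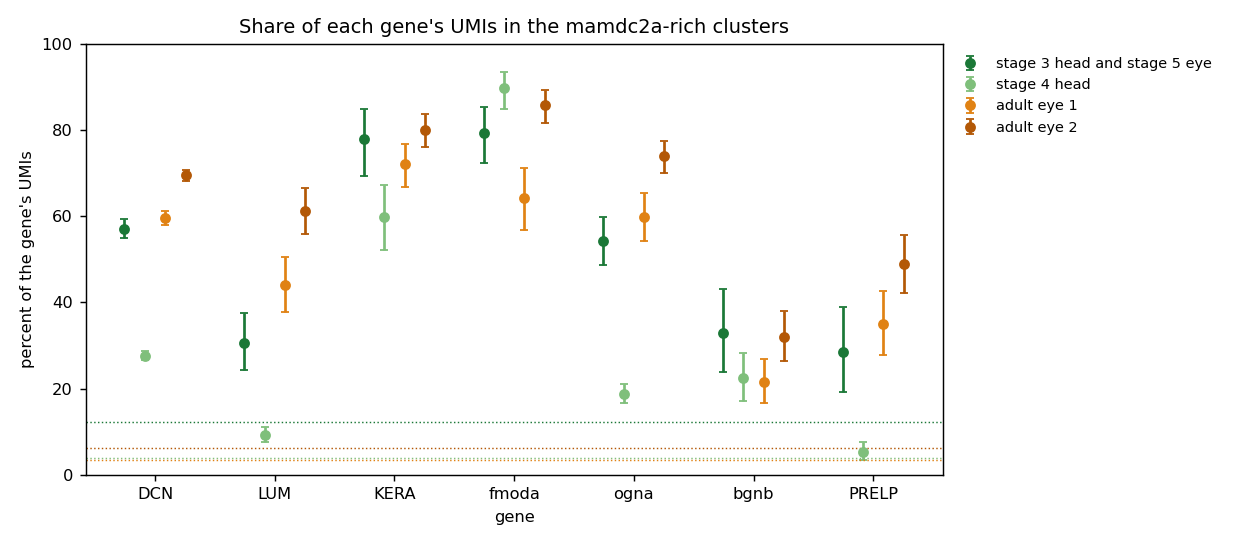
Percent of each member's UMIs that lie in the mamdc2a-rich clusters, by section, with exact 95% Clopper-Pearson intervals (dotted lines: percent of all UMIs of the section that these clusters hold). KERA and fmoda lie at 59.9% or more in every section, while LUM and PRELP fall to 9.33% and 5.23% in the stage 4 head.

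The contrasts were looked at again at equal depth. Spots were thinned to 500 UMIs, leaving out 11, 18, 4 and 7 shallower spots of the mamdc2a-rich clusters, sections in the usual order. A KERA UMI then remained in 18.5% of these spots in the mixed section (32.6% unthinned), 17.2% in the stage 4 head (38.2%), 44.7% in adult eye 1 (82.7%) and 37.6% in adult eye 2 (64.1%). In lens-like spots, which should lack the gene, 1 of 26 thinned spots had KERA in the mixed section and 0 of 94, 201 and 230 had it in the other sections. The 0 counts allow shares of up to 3.19%, 1.49% and 1.30%. DCN was seen after thinning in 59.3% and 74.1% of the mamdc2a-rich spots of the developing sections and in 98.9% and 87.2% in the adult eyes. In lens-like spots it was seen in 0 of 26, 7.45%, 0.995% and 0 of 230. The median depth of mamdc2a-rich and lens-like spots was 1773.5 and 2109 UMIs in the mixed section, 1613 and 2720.5 in the stage 4 head, 1339 and 1442 UMIs in adult eye 1, and 1868.5 and 989 UMIs for adult eye 2. The lens-like spots of the stage 4 head had the highest DCN share of the 4 lenses. In all spots outside the mamdc2a-rich clusters DCN was seen after thinning in 21.3% and 39.8% (developing sections) and 22.7% and 19.9% (adult eyes). PRELP was hardly set apart from these in the developing sections, at 2.47% inside against 2.92% and 8.62% against 8.02%. Adult eyes had 14.9% against 2.71% and 20.8% against 3.75%. bgnb had 4.94% against 3.09%, 5.17% against 3.49%, 13.8% against 5.93% and 12.1% against 4.78%, sections in the usual order.

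Within the mamdc2a-rich clusters the members varied strongly from spot to spot. The median spot had 1873 DCN CPM in the mixed section, 4248 in the stage 4 head, and 14744 and 11588 in the adult eyes. The spots at the 90th percentile reached 18427 and 31083 DCN CPM in the developing sections and 24707 and 25938 in the adult eyes. The median spot held no KERA UMI in the developing sections, and 1406 and 788 KERA CPM in the adult eyes.

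In the stage 4 head, clusters 2, 3 and 9, which had unlike leading genes, were rich in LUM but held almost no KERA. fmoda had 0 UMIs in clusters 3 and 9. In cluster 2 fmoda was counted in 4 spots and is not called scarce there. Cluster 3 (45 spots) had connective tissue as its marker class but was led by col10a1b and col10a1a, collagens of hypertrophic cartilage, and is left unnamed here. It had 1145 LUM CPM (973 to 1340), 3392 DCN CPM and 0 UMIs of KERA and fmoda, which allows up to 22.0 CPM. Cluster 9 (120 spots, led by NKX3-2, a skeletal transcription factor, and thbs4a, a tendon thrombospondin) had 1221 LUM CPM (1104 to 1348), 3030 DCN CPM, 2 KERA UMIs and 0 fmoda UMIs. Cluster 2 (59 spots, led by VIP, TFPI2 and VEGFC) had 1131 LUM CPM (930 to 1361), 0 KERA UMIs and 5 fmoda UMIs. Each of these LUM levels was above the 611 CPM (499 to 740) of the mamdc2a-rich cluster of the same section. The cartilage-like cluster 11 (101 spots) had 1075 ogna CPM (928 to 1238) and 3135 DCN CPM (2881 to 3406), with 218 LUM CPM.

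In the stage 4 head KERA UMIs were also counted in retina-like clusters. The photoreceptor-like cluster 5 (34 spots) had 863 KERA CPM (625 to 1162), from 43 UMIs in 15 spots. That interval overlapped the 605 KERA CPM (494 to 734) of the mamdc2a-rich cluster of the section. The 3 richest spots of cluster 5 held 16, 8 and 5 of its KERA UMIs. The inner retina-like cluster 4 had 105 KERA CPM (54.2 to 183) from 12 UMIs. In cluster 5 DCN had 161 CPM (69.3 to 316), and fmoda had 0 UMIs, which allows up to 60.2 CPM. Of the 15 spots with KERA, 12 had no DCN UMI, and they carried 40 of the 43 UMIs. Connective tissue markers summed to 1064 CPM in this cluster and photoreceptor markers to 39095 CPM. Lens markers summed to 11038 CPM there, inner retina markers to 6322, pigment epithelium markers to 4074 and muscle markers to 2950. In adult eye 1 an unnamed cluster led by the photoreceptor genes SLC24A1, SAMD7 and PPEF2 (cluster 11, 54 spots) had 173 KERA CPM (83.2 to 319) from 10 UMIs, against 69 DCN CPM. Whether reads of another transcript were assigned to KERA could not be examined.

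bgnb lay above DCN in a retina-like or neuronal cluster of each adult eye, but not in that of the stage 4 head. It had 157 CPM (93.3 to 249) in the inner retina-like cluster 4 of the stage 4 head, 218 CPM (157 to 295) in the inner retina-like cluster 5 of adult eye 1, and 221 CPM (163 to 292) in the unnamed cluster 3 of adult eye 2, which PCP4 and other neuronal genes lead. In those clusters DCN had 227, 104 and 135 CPM. These orders of bgnb and DCN compare point values, as no DCN intervals are given. In cluster 4 of the stage 4 head the KERA interval given above overlapped that of bgnb. The highest bgnb levels of the adult eyes were outside the mamdc2a-rich clusters, at 596 CPM (373 to 902) in cluster 13 of adult eye 1 and 438 CPM (320 to 587) in cluster 13 of adult eye 2. The first has the melanin synthesis gene TYRP1 among its leading genes and connective tissue as its marker class, and the second is unnamed and led by asip1, an agouti signalling gene. In lens-like clusters of the adult eyes DCN ranged over 0 to 10.7 CPM.

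**Figure D3:**
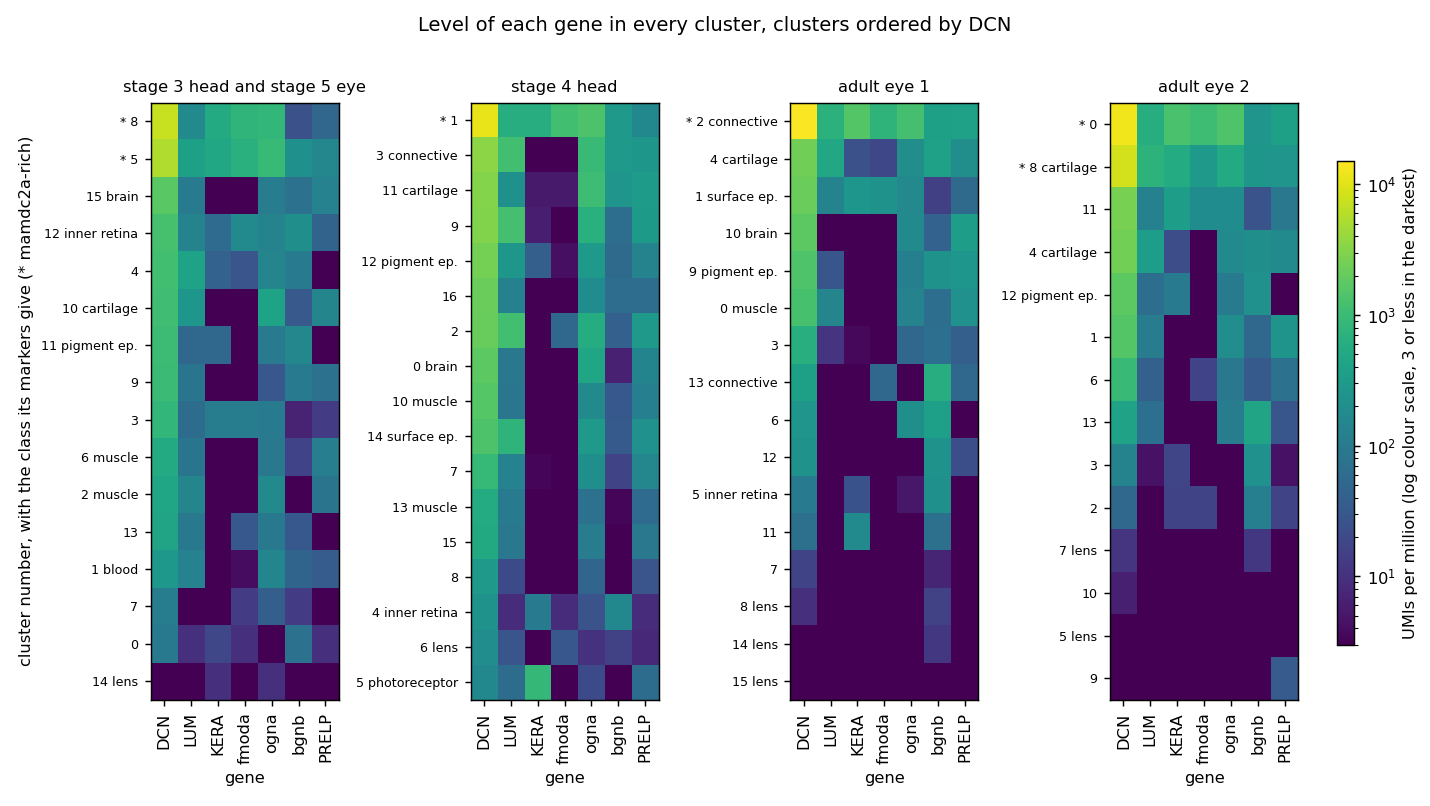
Level of each member (columns) in every cluster (rows, ordered by DCN, with the marker class, cluster 3 of the stage 4 head included; * marks mamdc2a-rich clusters) of the 4 sections, as CPM on a log colour scale. The marked rows hold the highest DCN levels of each section, and the photoreceptor-like row of the stage 4 head holds its highest KERA level, 863 CPM. The interval of that level overlaps that of the marked row of the stage 4 head, at 605 CPM (494 to 734).

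Members were found together in spots more often than their separate frequencies gave. The number of spots due to hold both genes of a pair was summed over 10 depth strata of each section, so that deep spots do not count as company. All 21 pairs lay above 1 in each of the 4 sections, with lowest ratios of 1.15, 1.01, 1.06 and 1.06, sections in the usual order. Pairs of other genes were not counted, so this is not read as a result about the members. With 5 depth strata 20 of 21 pairs lay above 1 in the stage 4 head. After thinning to 500 UMIs it was 20 of 21 in the stage 4 head and adult eye 2, with lowest ratios of 0.98 and 0.88. The median ratio of observed to due was 1.99 in the mixed section, 1.34 in the stage 4 head, 2.00 in adult eye 1 and 1.74 in adult eye 2. Spots share libraries and tissue, so these ratios carry no test. Counted within clusters, the medians were lower, at 1.58, 1.25, 1.23 and 1.22, and in 3 sections 19 of 21 pairs lay above 1. The lowest pair within clusters was at 0.80, in adult eye 2.

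KERA with fmoda had the highest ratio of the 21 pairs in every section. A pair that holds a gene of many spots, such as DCN, has a low ceiling, so ratios of common and rare genes are not on 1 footing. They shared 30 spots where 3.24 were due in the mixed section, 22 where 3.19 were due in the stage 4 head, 74 where 13.8 were due in adult eye 1 and 84 where 20.7 were due in adult eye 2. The ratios were 9.26, 6.90, 5.37 and 4.06. Counted within clusters they were 2.39, 1.70, 1.28 and 1.43, and KERA with fmoda was then the highest pair in the mixed section and adult eye 2, while fmoda with PRELP was highest in the stage 4 head (1.78) and adult eye 1 (1.36). KERA reached 61.2% and 43.1% of the fmoda spots in the developing sections and 83.1% and 79.2% in the adult eyes. fmoda reached 63.8% and 31.9% of the KERA spots in the developing sections and 58.7% and 63.2% in the adult eyes. Pairs of fmoda with bgnb were near the number due in the adult eyes, at 1.07 and 1.06, and KERA with DCN was at 1.02 in the stage 4 head, against 1.70 to 1.99 in the other sections. DCN was present in 87.2% of KERA spots in the mixed section, 63.8% in the stage 4 head, and 92.1% and 93.2% in the adult eyes.

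**Figure D4:**
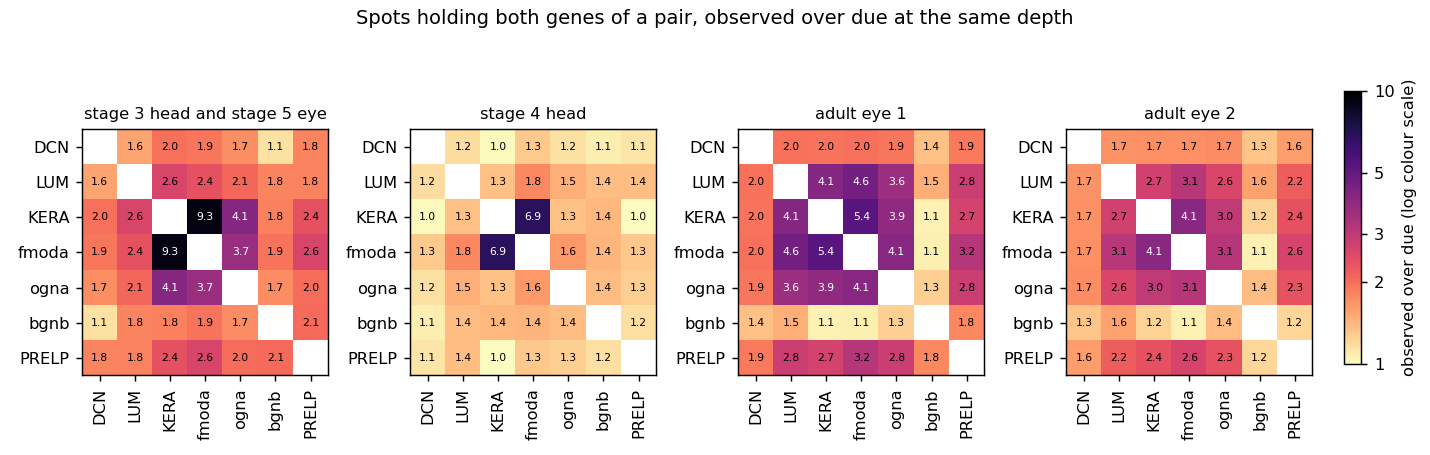
Number of spots holding both genes of each pair, divided by the number due at the same depth, on a log colour scale for the 4 sections (each cell prints its ratio; the matrix is symmetric). KERA with fmoda is the highest pair in all 4 sections, from 9.26 to 4.06, and fmoda with bgnb is near 1 in both adult eyes.

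To test the company of DCN over sections, counts were summed over the spots with a DCN UMI and over the other spots of each section and compared with edgeR's quasi-likelihood test, with section as a block. DCN spots numbered 326, 796, 472 and 512, against 453, 339, 821 and 976 other spots. They were deeper, with median UMIs of 1905.5, 3132.5, 1476 and 1695 against 1348, 964, 1154 and 680. Of 8140 genes tested, 1110 (13.6%) were higher and 999 (12.3%) lower in DCN spots at an adjusted p under 0.05. Without adult eye 1 these counts were 647 and 623, and without adult eye 2 they were 603 and 587. Normalisation used TMM. In the raw CPM the median gene lay at log2 ratios of -0.11 and -0.39 in the developing sections and 1.16 and 1.39 in the adult eyes, and the folds below are relative to that shift. The numbers of sections given with the folds compare raw CPM and do not take that shift out. In the adult eyes the median gene was thus already higher in DCN spots on that scale. Lens markers summed to 84773 CPM in DCN spots against 260210 in other spots of adult eye 1, and to 103566 against 250666 in adult eye 2.

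Of the 8 other members 6 were tested, fmodb and ognb having too few UMIs, and all 6 were higher in DCN spots. fmoda had 226 CPM in DCN spots and 6.22 in other spots of the mixed section. It had 57.0 against 8.43 in the stage 4 head, 175 against 0.609 in adult eye 1, and 244 against 1.58 in adult eye 2. Its fitted log2 fold was 5.40 ± 0.46 (SE, adjusted p 3.72e-06, higher in 4 of 4 sections). The log2 folds of ogna, LUM and PRELP were 4.03 ± 0.41, 3.82 ± 0.53 and 2.93 ± 0.34 (SE), with adjusted p of 1.4e-05, 9.96e-05 and 2.85e-05, each higher in 4 of 4 sections. bgnb had the smallest fold, 1.26 ± 0.28 (SE, adjusted p 0.00359, 4 of 4 sections).

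KERA followed DCN in 3 of the 4 sections. It had 164 CPM in DCN spots against 7.47 in other spots of the mixed section, 303 against 3.04 in adult eye 1, and 329 against 2.37 in adult eye 2. In the stage 4 head it was lower in DCN spots, at 32.4 against 89.3 CPM, where photoreceptor markers summed to 271 CPM in DCN spots and 3561 CPM in the other spots. Over all sections the log2 fold was 3.82 ± 0.92 (SE, adjusted p 0.00571). Without adult eye 1 the calls of KERA and bgnb were lost, at adjusted p of 0.0627 and 0.0614. A test of the difference between developing and adult folds, added after the data were seen, gave KERA log2 folds of 1.10 in the developing sections and 5.67 in the adult eyes (adjusted p 0.232). LUM had 2.47 and 5.69 (adjusted p 0.0698), and no member passed. That test called 0 of 8140 genes (0%) in either direction, with 927 at an unadjusted p under 0.05. It took the 2 developing sections as repeats of 1 group, though they differ in stage and tissue. Its p-values, here and below, thus do not measure a spread between like developing sections.

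Spots were then chosen by each other member. In LUM, ogna, PRELP, bgnb and fmoda spots, each of the 6 other members tested was higher. Of all genes tested, 7.11% were higher and 9.68% lower in LUM spots, 6.59% and 8.86% in ogna spots, 5.25% and 7.14% in PRELP spots, 3.62% and 6.22% in bgnb spots, and 6.37% and 9.61% in fmoda spots. In fmoda spots the call of LUM was lost without adult eye 2 (adjusted p 0.0588), that of PRELP without adult eye 1 (0.0765) or 2 (0.0994), and that of bgnb without the mixed section (0.0884), adult eye 1 (0.0898) or adult eye 2 (0.0652). In PRELP spots bgnb was lost without the mixed section (0.0786) or adult eye 1 (0.186). In bgnb spots ogna (0.0685) and KERA (0.0686) were lost without adult eye 2, fmoda without the stage 4 head (0.11) or the mixed section (0.101), and PRELP without adult eye 1 (0.122) or 2 (0.116). After thinning to 500 UMIs all 6 calls were lost in bgnb spots, with log2 folds of 0.11 (DCN), 0.17 (ogna), 0.10 (KERA), 0.22 (PRELP), 0.83 (LUM) and -0.15 (fmoda). With equal numbers of spots per depth decile, ogna, KERA, fmoda and PRELP lost the call in bgnb spots (adjusted p 0.293, 0.481, 0.384 and 0.156), as did LUM, PRELP and bgnb in fmoda spots (0.146, 0.0821 and 0.206) and bgnb in PRELP spots (0.199). Thinning also ended the calls of PRELP (0.0566) and bgnb (0.956) in fmoda spots, of bgnb in PRELP spots (0.805) and of bgnb in ogna spots (0.055). The largest fold among members in fmoda spots was KERA (log2 5.10 ± 0.37, SE, adjusted p 1.88e-05) and that in KERA spots was fmoda (6.0 ± 0.46, adjusted p 2.1e-06). In KERA spots, where 3.06% of 7330 genes were higher and 6.02% lower, DCN and ogna also passed, while LUM (1.74 ± 0.57), PRELP (1.59 ± 0.54) and bgnb (0.96 ± 0.35) had adjusted p of 0.0679, 0.0795 and 0.108. Without the stage 4 head, LUM and PRELP passed in KERA spots at adjusted p of 0.000197 and 8.79e-05 and bgnb at 0.0402. The test of the difference between developing and adult folds called 0 (0%) and 1 (0.0136%) of 7330 genes in KERA spots, with the higher fold in development and in the adult, and no member, with 536 genes at an unadjusted p under 0.05 by edgeR. In fmoda spots it called 1.22% and 0.277% of 6502 genes, and of the members LUM alone, with log2 folds of 1.15 in the developing sections and 3.00 in the adult eyes (adjusted p 0.0272).

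Matrix partners of the family were read from lists of related genes, against 13.6% of all genes higher and 12.3% lower in DCN spots. Of 9 other leucine-rich proteoglycan genes in the files, 5 were tested and all 5 were higher in DCN spots, led by ECM2 (log2 2.39 ± 0.35, SE) and PODN, podocan (2.36 ± 0.42). All 5 tested collagen genes of 10 were higher, against a median of 0.05 over all genes tested. They were col1a1b (3.84 ± 0.43), COL6A2 (3.60 ± 0.30), COL6A3, col1a1a and col6a1, and their median log2 fold was 3.24. COL6A3, col1a1a and col6a1 had at most 6.74 CPM in the other spots of any section. They may have entered the test only through DCN spots, so the 5 of 5 is not read as a result about the collagens. Of 11 tested collagen processing genes 6 were higher, among them loxl2a (2.90 ± 0.36) and loxa (2.49 ± 0.28), lysyl oxidases that cross-link collagen, and SERPINH1 (1.63 ± 0.29), the collagen chaperone. bmp1b was lower (-2.33 ± 0.48, lower in 4 of 4 sections), but it was counted rarely. Its DCN spots held 2 and 5 UMIs in the developing sections and 2 and 5 UMIs in the adult eyes. At such counts its direction within a single section is uncertain. In the adult eyes it had 8.52 and 11.6 CPM in other spots, against 1.95 and 3.66 in DCN spots. COL6A3 was sparse too, with 6 and 7 UMIs in DCN spots of the developing sections and 11 and 14 in the adult eyes. The same limit holds for COL6A3. In mammals BMP1 trims procollagen and some of these proteoglycans. Adjusted p was under 0.05 by edgeR for each of these named genes. Of the proteoglycans, the call was lost for ASPN without the stage 4 head (0.0593), TSKU without the mixed section (0.0602) and chadlb without the mixed section (0.0624), adult eye 1 (0.143) or 2 (0.238), and of the processing genes for pcolcea without adult eye 1 (0.052).

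Sugar chain enzymes were read the same way. Of 14 tested glycosaminoglycan synthesis genes 3 were higher in DCN spots and none was lower, with a median log2 fold of 0.59, where 13.6% of all genes were higher. A share of 3 in 14 is near that background and is not read as a result about these enzymes. The 3 were chst3a (2.79 ± 0.60, SE) and CHST11 (2.00 ± 0.60), chondroitin sulfotransferases, and dse (2.53 ± 0.44), the epimerase that makes dermatan sulfate, which was higher in 3 of 4 sections. Each had at most 6.22 CPM in other spots of any section, so the limit of the count filter given above holds for them. chst3a was also counted rarely, with 7 and 8 UMIs in DCN spots of the developing sections and 15 and 22 in the adult eyes. XYLT2, which starts the chain, had a log2 fold of 0.64 with an adjusted p of 0.368. Of 8 tested TGF-beta genes 6 were higher, against the same 13.6%, including the target CCN1 (1.59 ± 0.25), the receptor TGFBR2 (2.06 ± 0.56) and the ligand tgfb1a (1.20 ± 0.30). 1 of the 2 TGFB3 genes had a fitted fold of -0.77 (adjusted p 0.0499), with raw log2 CPM ratios below 0 in the developing sections and above 0 in the adult eyes. Of 10 tendon genes in the files 4 were tested, and all 4 were higher, again against 13.6%. They were thbs4b (3.62 ± 0.39), thbs4a (3.33 ± 0.45), TNC and EGR1. The list's SCX, TNMD and MKX were not among those tested. Of 4 tested corneal keratocyte genes 2 were higher and 1 lower, against 13.6% and 12.3% of all genes. ANGPTL7, a secreted protein abundant in human cornea, was higher (3.68 ± 0.36) in 4 of 4 sections and TKT (1.24 ± 0.41) in 3 of 4. CLU was lower in the fit (-1.02 ± 0.28), while its raw log2 CPM ratio was above 0 in both adult eyes. Calls lost without a section included tgfb1a without adult eye 1 (adjusted p 0.0518), TNC without the stage 4 head (0.147) or mixed section (0.0665), EGR1 without adult eye 1 (0.111) or 2 (0.337), and CLU without adult eye 1 (0.0514) or 2 (0.0581). TKT was lost without the mixed section (0.198), adult eye 1 (0.142) or 2 (0.13), and TGFB3 without any 1 of the 4 sections (0.0581 to 0.241).

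**Figure D5:**
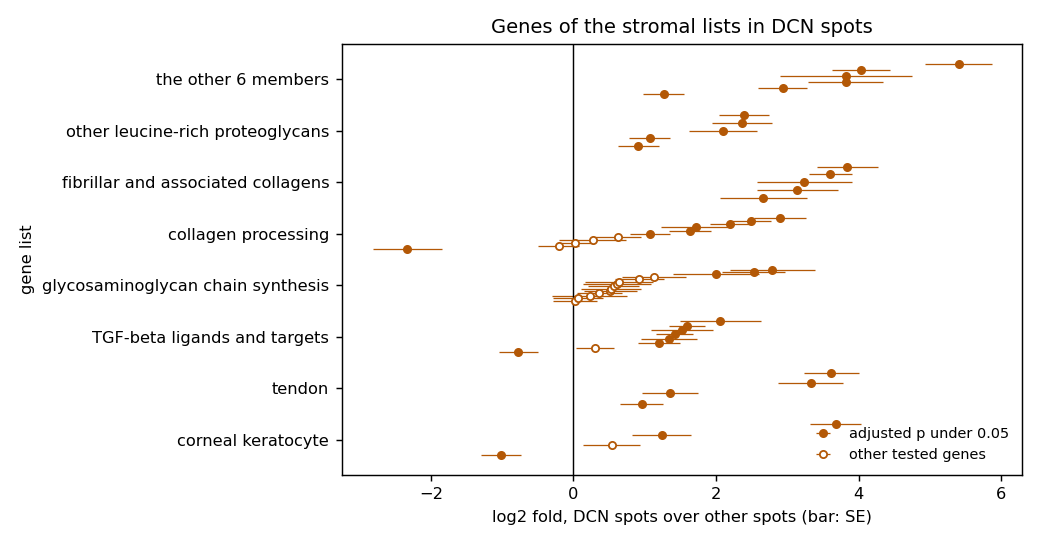
Fitted log2 folds of DCN spots over other spots for the other 6 members and the related gene lists (each point 1 gene with its SE as a bar; filled where the edgeR adjusted p was under 0.05). All members, other leucine-rich proteoglycans, collagens and tendon genes tested lie right of 0, and most sugar chain genes are open points. Genes scarce in other spots could enter the test through their level in DCN spots.

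Markers of other tissues moved with DCN as well. In DCN spots 16 of 18 tested muscle markers, 12 of 16 cartilage and bone markers, 8 of 8 surface epithelium markers and 10 of 12 connective tissue markers were higher. Of all genes 13.6% were higher and 12.3% lower. The connective tissue markers include collagens and loxa that were counted in the lists above. All 17 tested lens markers, 13 of 15 photoreceptor markers, 9 of 13 inner retina markers and 5 of 7 brain markers were lower. Of the inner retina markers 1 was higher. These calls are relative to the shift given above. In raw CPM the summed brain markers were higher in DCN spots of every section. They had 2195 against 1210 in the mixed section, 410 against 354 in the stage 4 head, and 334 against 206 and 249 against 245 in the adult eyes. Summed inner retina markers were lower in the developing sections (854 against 2097 and 392 against 2806) and higher in the adult eyes (791 against 744 and 758 against 670). Mural and endothelial markers were mixed, with 2 higher and 1 lower of 5, and 1 of 3 macrophage markers was higher. None of 7 pigment epithelium or 3 blood markers was called. Muscle markers summed to 11105 CPM in DCN spots against 4914 in other spots of the mixed section, 55827 against 14015 in the stage 4 head, 7659 against 1043 in adult eye 1, and 8816 against 592 in adult eye 2. Connective tissue markers summed to 4510 against 771, 3079 against 1151, 3412 against 321 and 3629 against 260 CPM in the same sections. The part of each tissue in the folds above was not tested. By the rule for leading genes, the genes higher with the smallest adjusted p included COL6A2, fmoda, zgc:113531, soul5, WNT9B, MGP, ANGPTL7, ogna and DKK2. MGP (3.55 ± 0.34, SE) is an inhibitor of calcification and DKK2 (4.62 ± 0.47) is a Wnt pathway regulator. The leading genes lower in DCN spots were 8 crystallins, BFSP1, a lens filament protein, and si:dkey-57a22.13.

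The genes whose pattern over spots was most like a member were named by the mean of Pearson's r over the 4 sections, among 3873 genes. Spots of a section share a library and depth, so r is a description. Most like DCN were COL6A2 (mean r 0.63), ogna (0.57), SPARC (0.52), ccdc80l2 (0.50), mamdc2a (0.49), soul5 (0.48), si:ch1073-459j12.1 (0.48) and fmoda (0.48). LUM ranked 12, KERA 15, PRELP 25 and bgnb 243. Most like fmoda were KERA (0.64), mamdc2a (0.60), soul5 (0.55), aqp3a (0.53), a channel for water and glycerol, COL6A6 (0.53), a collagen VI chain, ogna (0.52), DCN (0.48) and ccdc80l2 (0.47). The r of KERA with DCN was 0.48 in the mixed section, 0.09 in the stage 4 head, 0.59 in adult eye 1 and 0.58 in adult eye 2.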

How the data were processed

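Visium counts of 4 sections were used. Per the file headers, the deposited UMI counts per gene and spot were written by Space Ranger 3.1.3; the genome build, annotation and aligner settings are not given in the sources used here, and spots are as deposited. No doublet caller was run. Spots with at least 100 UMIs were kept. Members and gene lists were chosen with earlier results of these data known. Named genes were the members, the lists, and, of genes moving the same way in all sections, the 10 in each direction that ranked first by adjusted p. Some genes that this rule or the lists name are not reported here. Clusters were made per section without the members (scanpy 1.11.5, 2000 variable genes, 30 components, 15 neighbours, Leiden resolution 1) and named after a marker class with at least 3 markers 2-fold higher (where several qualified, the one of largest average fold), if the 10 leading genes held 1 of its markers and no more of another class. That naming rule was set after clusters had been seen. Counts summed per section and spot kind were tested with edgeR 4.0.16 (filterByExpr, TMM, quasi-likelihood, section as block, Benjamini-Hochberg over all genes tested) in R 4.3.3, with DESeq2 1.42.0 as an alternative. With section as a block, p-values measure how much the difference between the spot kinds varies over the sections. Sections were not stated to be separate animals, so that spread may be technical. It also mixes in stage and tissue content, as the 4 sections come from 3 groups. On simulated counts for DCN spots, 92% of 2-fold and 100% of 4-fold changes were recovered among 7461 genes, with 11 false calls. The simulation changed 200 well-counted genes, gave every gene the same spread, and otherwise left both kinds of spot alike in composition. The real spots differ in composition and many genes have few UMIs, so these figures do not give the error rates of the real comparison. Alternatives were other spot minima, denominators, normalisations, depth matching, thinning to 500 UMIs, cluster resolutions and left-out sections.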

Additional observations from a re-analysis of the deposited data

Results flagged for a closer look

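LUM in fmoda spots differed between the developing and the adult sections by a test of the difference itself, added after the data were seen. Its log2 fold in fmoda spots over other spots was 1.15 in the developing sections and 3.00 in the adult eyes, a difference of -1.86 ± 0.47 (SE, 2 against 2 sections, edgeR interaction adjusted p 0.0272). That test called 79 of 6502 genes (1.22%) with the higher fold in development and 18 (0.277%) with the higher fold in the adult. The 2 developing sections entered the test as repeats of 1 group, though they differ in stage and tissue and are not replicates. The adjusted p thus does not measure a spread between like developing sections, and the folds are a description of these sections. The test was not refitted without single sections. In the stage 4 head most LUM lay outside the mamdc2a-rich clusters that hold fmoda, and the part of that tissue in the difference was not tested. In the KERA spots 1 gene, not a member, was called.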

How the results depend on the processing

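The summed member level was 2020 CPM (mixed section of a stage 3 head and a stage 5 eye), 2586 (stage 4 head), 1775 and 2157 (adult eyes) with crystallin UMIs left out of the totals. Genes past 2-fold then numbered 222 (higher in development) and 493 (adult), and members past it 0. Relative to the median gene members past it were 0, and with a minimum of 500 UMIs per spot 1. The share of member UMIs in mamdc2a-rich clusters was 42.0% in the mixed section when mamdc2a had to be among the 10 leading genes, the first rule used, replaced after the data were seen because it changed with resolution and spot minimum. It was 23.4% (stage 4 head) and 79.7% (adult eye 2) at resolution 0.5, 24.0% (stage 4 head) at resolution 2, and 49.6% (mixed section), 62.4% and 75.4% (adult eyes) with a minimum of 500 UMIs. Median co-detection in adult eye 1 was 1.23 within clusters, and 5 of the 8 genes most like DCN were shared under Spearman's rho.

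Thinning to 500 UMIs left 349 genes higher and 374 lower in DCN spots, and 363 (ogna), 550 (fmoda), 189 (PRELP), 174 (bgnb), 276 (KERA) and 410 (LUM) in either direction. Equal numbers of spots per depth decile, added after the data were seen, gave 646 (ogna), 387 (fmoda), 186 (PRELP), 248 (bgnb), 187 (KERA) and 451 (LUM). Depth matching gave 636 (PRELP) and 463 (bgnb), DESeq2 709 (PRELP), 453 (bgnb) and 833 (LUM), and no filter 1655 (fmoda). Leaving out a section gave 603 to 1187 higher and 587 to 1149 lower in DCN spots, and 771 to 1206 (ogna), 304 to 1333 (fmoda), 566 to 1122 (PRELP), 334 to 668 (bgnb), 311 to 1017 (KERA) and 805 to 1256 (LUM). Thinning reversed bgnb in fmoda spots (-0.065), fmoda in bgnb spots (-0.15) and EGR1 in DCN spots (-0.0014). Of 462 member folds under alternatives 416 kept direction and side of the threshold, 39 lost the call, 5 gained it and 2 reversed. The cause was not tested. Member spots and other spots were compared within each section. Developing sections could not be paired with adult ones, because the labels state no link between specimens of different stages. The developmental groups also hold only 1 section each. Depth limits fmodb and ognb, and intervals leave out the spread between sections.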
